A study of Rattus norvegicus with 24 samples.

Results

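Ocm and Pvalb encode the parvalbumin family of the rat: Ocm encodes oncomodulin, the beta-parvalbumin, and Pvalb encodes parvalbumin, the alpha form. Both genes were taken by their symbol in the annotation of the array's probes, where each had 1 probe. They are 2 of 4126 named genes on the array, and both had a value on all 24 arrays. The pair was selected on its readout, because both were higher in the CHF than in the CON right ventricle. The right ventricle values of CHF and CON that chose it are therefore given as a description, with no test.

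Parvalbumins are small cytosolic EF-hand proteins, that is, proteins in which a loop between helices holds a calcium ion. At rest the sites of the alpha form are largely occupied by magnesium. This form therefore takes up calcium with a delay after a contraction has begun and speeds the removal of calcium from the cytosol. Pvalb is known from fast-twitch skeletal muscle fibres, where it hastens relaxation, and from a class of inhibitory neurons. Mammalian heart muscle has little or none of it, and gene transfer of parvalbumin into rat heart muscle cells has been used to speed their relaxation. Ocm was first described in a rat hepatoma and is known from the outer hair cells of the cochlea and, in rodents, from macrophages and neutrophils.

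The study measured total RNA from rat heart ventricles on 2-colour arrays, with the ventricle sample in one channel and a pool, shared by all arrays, in the other. All samples were labelled with day 14. The labels give 6 CHF, 6 HYP and 6 CON samples of the right ventricle and 2 of each condition from the left ventricle. The title of the series names compensated and decompensated hypertrophy after monocrotaline. This plant toxin damages lung vessels, which raises the pressure the right ventricle pumps against. CHF is read here as the decompensated, HYP as the compensated and CON as the control group. The labels do not spell these out, and dose, strain, sex, age, and whether the controls were injected were not stated in the sources at hand. Since ventricle tissue is a mixture of cell types, a change in the number of cells of a type and a change of RNA per cell cannot be told apart.

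A score is the authors' signed value for a probe on an array, sample against reference pool, and the SD of an array's scores lay between 0.870 and 1.01. Scores are given in the deposited units after centring each array on its median. Their scale was not stated, so a difference of scores cannot be read as a fold change. A score of 0 is the median of the array and not an absence of RNA, so levels of different genes cannot be compared. An array held between 2162 and 3658 values. The dye of each channel was not stated in the sources at hand, and the lowest correlation across probes between 2 arrays was -0.530, for CHF array 14 against HYP array 08 of the right ventricle. The direction of the scores is therefore not settled. Sample over pool is called likely here because Acta1, which is known to rise in a pressure-loaded ventricle, was then higher in the CHF right ventricle. As an alternative, all comparisons were recomputed after reversing the sign of 5 arrays (right ventricle CHF 10 and 14, left ventricle CHF 09, CON 21 and CON 22).

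The sequences before the 2 genes' start sites are shown because the genes varied together from array to array. This was not particular to the pair, since Maoa, Safb, Acta1, Capn3 and Bdkrb1 followed Ocm more closely than Pvalb did. The sequences shown are the 250 bases upstream of the start in the RefSeq annotation of build GRCr8, on the gene's own strand. They lie at chr12:15700376-15700625 on the plus strand for Ocm and at chr7:111666290-111666539 on the minus strand for Pvalb. Capitals mark matches to the E-box, the letters CANNTG bound by the myogenic and many other basic helix-loop-helix factors.
Ocm: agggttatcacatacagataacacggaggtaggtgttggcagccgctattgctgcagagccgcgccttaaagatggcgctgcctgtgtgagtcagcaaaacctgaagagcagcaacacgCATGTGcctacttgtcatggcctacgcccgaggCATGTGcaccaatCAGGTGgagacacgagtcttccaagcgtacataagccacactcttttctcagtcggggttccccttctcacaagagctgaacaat
Pvalb: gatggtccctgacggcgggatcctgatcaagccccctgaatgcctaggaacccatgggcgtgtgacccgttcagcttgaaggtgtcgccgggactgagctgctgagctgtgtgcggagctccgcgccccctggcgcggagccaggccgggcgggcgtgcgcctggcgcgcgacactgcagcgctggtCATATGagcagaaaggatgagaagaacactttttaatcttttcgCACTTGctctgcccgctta

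The Ocm window held 3 E-box matches and the Pvalb window 2, and 65.5% of 33469 rat promoter windows of the same length held at least 1. Other motifs were searched on both strands as well. The AP-1 letters TGANTCA matched 1 time in Ocm and 0 times in Pvalb, with matches in 6.34% of all windows. CCAAT matched 1 time in Ocm and 0 times in Pvalb (34.0% of windows), and the GC box GGGCGG 0 times in Ocm and 1 time in Pvalb (30.5%). The TATA letters TATAAA and the muscle MCAT letters CATTCC matched in neither, against 12.9% and 12.1% of windows. No matches overlapped. The GC content was 53.2% for Ocm and 62.8% for Pvalb, with a median of 51.2% over all windows. The arrays measured no binding at these windows.

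In the right ventricle Ocm was highest in the CHF group, intermediate in HYP and lowest in CON. On the 6 CHF arrays, numbered 09, 10, 11, 12, 14 and 15, its scores were 2.07, 1.19, 1.42, 1.09, 0.971 and 0.992. On the 6 HYP arrays, 01, 03, 04, 05, 06 and 08, they were 1.58, 0.020, 0.877, -0.351, 0.536 and -0.506. On the 6 CON arrays, 17 to 22 in order, they were -1.82, -1.95, -2.66, -1.17, -0.586 and -1.95. Every CHF array lay above every CON array with a gap of 1.56 between the groups, and CON array 21 was the highest of its group. Mean scores were 1.29 ± 0.416 in CHF, 0.360 ± 0.795 in HYP and -1.69 ± 0.718 in CON (SD, n = 6 each).

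Pvalb had the same order of right ventricle groups over a narrower range. Its CHF scores, in the same order of arrays, were 1.16, 0.889, 0.888, 0.219, 0.824 and 0.741. The HYP scores were 1.05, -0.020, 0.647, -0.119, 0.909 and 0.233. The CON scores were -0.577, -0.398, -0.540, -0.029, -0.255 and -0.554. All CHF arrays lay above all CON arrays by at least 0.248, with CHF array 12 the lowest of its group. Mean scores were 0.787 ± 0.312 in CHF, 0.450 ± 0.491 in HYP and -0.392 ± 0.216 in CON (SD, n = 6 each).

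**Figure D1:**
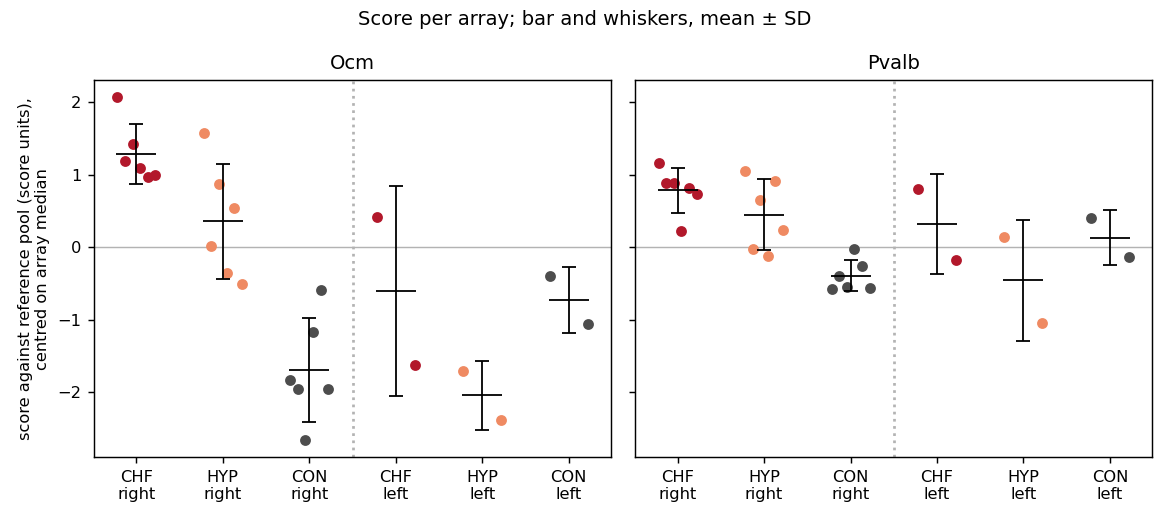
Scores of Ocm (left panel) and Pvalb (right panel) on each array, in score units, for CHF, HYP and CON of the right ventricle and then of the left; points are arrays, bars the group mean and whiskers the SD. In the right ventricle the CHF points lie above all CON points for both genes, while the left ventricle groups of 2 arrays spread widely.

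The difference that chose the pair, CHF minus CON in the right ventricle, was 2.98 for Ocm and 1.18 for Pvalb. The root mean square of the SDs of the 2 groups was 0.587 for Ocm and 0.268 for Pvalb. Groups that did not overlap were found for 1.45% of the 1797 features with a value on all 12 arrays, and 0.907% of the 3199 features passed the test of this contrast (limma, adjusted p below 0.05). Nothing is read from these values for the pair, which was chosen on this contrast. Reversing the sign of CHF arrays 10 and 14 gave differences of 2.26 and 0.608. The CHF and HYP groups, whose difference also holds the CHF arrays that chose the pair, differed by 0.930 for Ocm and 0.337 for Pvalb, and their values overlapped.

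The HYP arrays took no part in choosing the pair, so HYP against CON asks whether the genes also differed in the compensated group. It shares the 6 CON arrays with the contrast that chose the pair, and those were low for both genes. Ocm was higher in HYP by 2.05 ± 0.377 (SE in score units, 6 arrays a group, adjusted p = 0.0174 by limma), and Pvalb differed by 0.842 ± 0.243 (n = 6 and 6, adjusted p = 0.604). So 1 of the 2 passed, where 0.281% of 3199 features did (9, all higher). By unadjusted p Ocm ranked 5th and Pvalb 14th. Low CON values helped to choose the pair, so a positive difference was favoured here in advance. Nothing is read from the share or the ranks.

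The Ocm groups were barely apart: HYP array 08 at -0.506 and CON array 21 at -0.586 were separated by 0.081, and by 0.029 on the deposited scores. For Pvalb CON array 20 lay above HYP array 05, and 5 of 6 HYP arrays lay above all CON arrays. Over the 1977 features with values on these 12 arrays the 2 groups did not overlap for 0.759%. The Ocm call rested on single arrays. It was lost without HYP array 01, 04 or 06 or CON array 17, 18, 19 or 22, at differences of 1.81 to 2.02 and adjusted p of 0.0519 to 0.0666. It was also lost when the HYP and CON arrays were fitted alone (adjusted p = 0.148), and when the sign was turned on the 2 CHF arrays that enter the spread (adjusted p = 0.337), with the difference at 2.05 in both.

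The left ventricle, which monocrotaline does not load directly, had 2 arrays per condition. Ocm was at 0.425 and -1.62 on CHF arrays 09 and 15, at -1.70 and -2.38 on HYP arrays 03 and 05, and at -0.400 and -1.05 on CON arrays 21 and 22. Pvalb was at 0.811 and -0.170 in CHF, 0.136 and -1.05 in HYP, and 0.400 and -0.130 in CON. The 2 CHF arrays stood on either side of both CON arrays for each gene, and for Ocm both HYP arrays lay below both CON arrays. The share of all features with groups apart in this way was not counted.

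CHF minus CON in the left ventricle was 0.128 ± 0.689 for Ocm and 0.186 ± 0.452 for Pvalb (SE, n = 2 and 2, limma adjusted p = 0.9998 for each). HYP minus CON was -1.31 ± 0.689 for Ocm and -0.591 ± 0.452 for Pvalb (n = 2 and 2, adjusted p = 0.996 for each). Limma called 0 of 2494 features in each comparison, 0%, with 22 at an unadjusted p below 0.05 in the first and 46 in the second. With 2 arrays a group these differences are not measured closely, and differences of CHF against CON took the other sign without CHF array 09, at -0.895 for Ocm and -0.305 for Pvalb. The same happened without CON array 22, at -0.198 for Ocm and -0.0795 for Pvalb, and with the sign turned, at -1.75 and -0.356. Pvalb in HYP against CON was at 0.001 without HYP array 05.

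Between ventricles, the HYP condition gives a comparison whose arrays did not choose the pair. Ocm was at 0.360 ± 0.795 in the right and -2.04 ± 0.476 in the left ventricle of HYP (SD, n = 6 and 2), and every right ventricle array was above both left ventricle arrays. The share of all features separated in this way was not counted, so nothing is read from the separation. The difference for Ocm was 2.40 ± 0.563 (SE, limma adjusted p = 0.0808). It did not pass, and on the features with a value on every array it did (adjusted p = 0.0382). Over all alternatives its adjusted p ran from 0.0382 to 0.522, with 0.455 when the sign was turned. Pvalb differed by 0.906 ± 0.369 (adjusted p = 0.502), and 1 of its 2 left ventricle arrays, HYP 03 at 0.136, lay within the range of the right. Here 0.0802% of features passed, which were Hcn2, the pacemaker channel gene, and Anxa1, a calcium-dependent phospholipid-binding annexin. These were named after their values were seen, and 211 features had an unadjusted p below 0.05.

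The median score of the 5 measured of 10 erythrocyte markers ran from -4.98 to -1.90 over the HYP right ventricle arrays and was 5.29 and -5.81 on HYP left ventricle arrays 03 and 05. Ocm was at -1.70 and -2.38 on these left ventricle arrays. The 13 measured of 18 heart muscle markers had medians between -0.540 and 0.747 in the right and of 0.715 and 0.918 in the left ventricle of HYP. The part of these differences in that of Ocm was not tested.

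The HYP minus CON difference of the right ventricle minus that of the left was 3.36 ± 0.796 for Ocm (SE, limma adjusted p = 0.110) and 1.43 ± 0.522 for Pvalb (adjusted p = 0.9997). Neither passed, and limma called 0 of 2494 features, 0%, with 62 at an unadjusted p below 0.05. The comparison holds the CON right ventricle arrays whose low values helped to choose the pair. A positive value was therefore favoured in advance.

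In the other 2 conditions the ventricles are described only. Ocm was higher in the right than in the left ventricle by 1.89 in CHF and lower by a difference of -0.966 in CON. For Pvalb the differences were 0.466 in CHF and -0.527 in CON. On arrays with the same sample number, right minus left for Ocm was 1.65 and 2.61 for CHF 09 and 15, 1.72 and 2.02 for HYP 03 and 05, and -0.186 and -0.901 for CON 21 and 22. For Pvalb it was 0.349 and 0.911 in CHF, -0.156 and 0.928 in HYP, and -0.655 and -0.424 in CON. All 4 CHF and HYP numbers were thus higher on the right for Ocm and both CON numbers lower, while Pvalb had 1 exception, HYP 03. The share of all features with these signs was not counted. For the CHF and CON numbers the choice of the pair favoured these signs in advance. Acta1 and Capn3, described below, had the same signs as Ocm at every number. The labels do not say that a number stands for 1 animal.

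**Figure D2:**
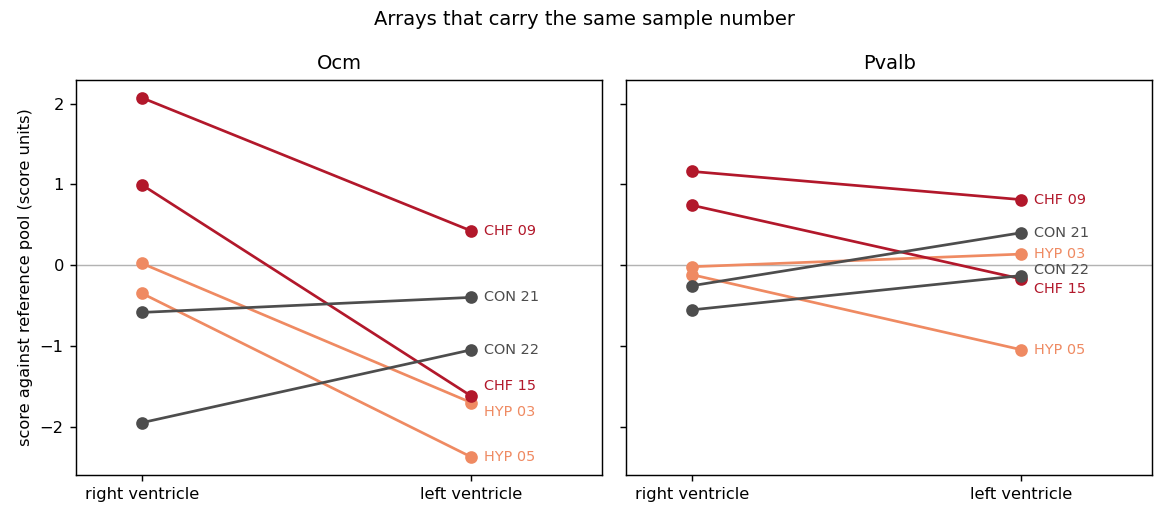
Score of Ocm (left panel) and Pvalb (right panel), in score units, on the right and left ventricle arrays that carry the same sample number, with a line for each of the 6 numbers. For Ocm the 4 CHF and HYP lines go down to the left ventricle and the 2 CON lines go up.

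By group mean, Ocm ran from the right ventricle of CHF through HYP right (0.360), CHF left (-0.598), CON left (-0.725) and CON right (-1.69) to HYP left (-2.04). Pvalb kept exactly this order, at 0.787, 0.450, 0.321, 0.135, -0.392 and -0.456. The order was not particular to the pair. Capn3, a muscle calpain gene described below, had it too, at 0.783, 0.209, -0.558, -0.595, -1.53 and -1.81. The choice of the pair also set CHF right above CON right, and each left ventricle group held 2 arrays. Each of the 5 neighbouring pairs of groups overlapped in its values, for both Ocm and Pvalb. The neighbouring differences ran from 0.128 to 0.966 for Ocm and from 0.0635 to 0.527 for Pvalb.

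Ocm and Pvalb also varied together within groups, which the choice of the pair did not use. The deviations of the 18 right ventricle arrays from their group means correlated at Pearson r = 0.738 (two-sided permutation within groups, p = 0.00179) and Spearman rho = 0.809 (permutation p = 0.00142). Within the groups r was 0.629 in CHF, 0.857 in HYP and 0.710 in CON (n = 6 each). Without the 2 arrays farthest from the median of Ocm, HYP 01 and CON 21, r was 0.706. Over the 6 left ventricle arrays, a relation looked at after the right ventricle one was known, the scores, with group differences left in, gave r = 0.900 (exact permutation p = 0.0181) and rho = 0.829 (exact permutation p = 0.0583). Adjusted over these 2 relations, the permutation p for Pearson r was 0.00358 in the right and 0.0181 in the left ventricle. For Spearman rho it was 0.00284 and 0.0583. The left ventricle arrays were permuted across conditions, so that p does not measure a relation within groups. The left ventricle relation rested on arrays HYP 05 and CHF 09, without which r was 0.630, and r was 0.356 with the sign turned (exact permutation p = 0.464). The right ventricle permutation asks only whether Ocm and Pvalb varied independently, not whether other genes varied with them too. There the deviations of Maoa, Safb, Acta1, Capn3 and Bdkrb1 correlated with those of Ocm at 0.951, 0.931, 0.923, 0.862 and 0.849.

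**Figure D3:**
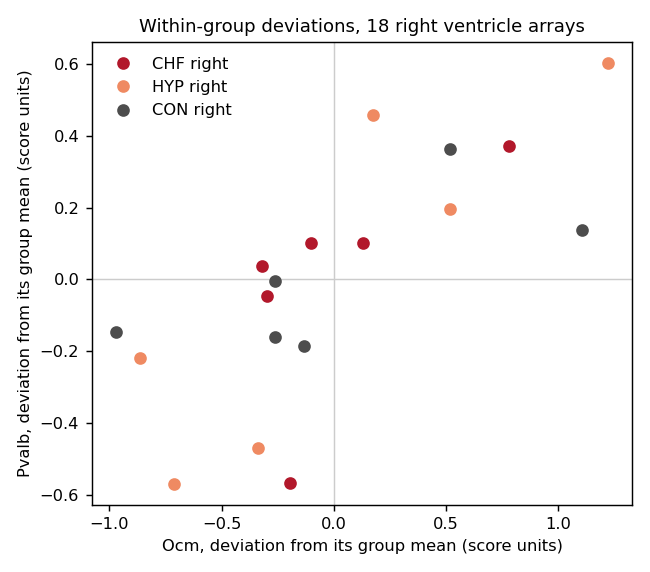
Deviation of Pvalb from its group mean (vertical) against that of Ocm (horizontal), in score units, for the 18 right ventricle arrays coloured by group. The points rise together in each group, with r = 0.738 over all 18.

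Within right ventricle groups the SD was 0.663 for Ocm and 0.358 for Pvalb, against a median of 0.550 over 1656 features with a value on every right ventricle array. The deviations of these features had a first component with 43.3% of their variance. Its correlation with the deviations was 0.0192 for Ocm and 0.360 for Pvalb. With the number of values on an array the deviations correlated at -0.181 for Ocm and 0.264 for Pvalb (n = 18 arrays, a description).

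The genes with the pattern most like that of Ocm were looked for among 2092 named genes that had at least 16 right ventricle values. The 5 with the highest Pearson r of the scores over the 18 right ventricle arrays were Maoa (0.990), Safb (0.986), Acta1 (0.983), Capn3 (0.973) and Bdkrb1 (0.970). Maoa encodes a mitochondrial monoamine oxidase, Safb a nuclear scaffold attachment factor, Acta1 skeletal alpha-actin, Capn3 a muscle calpain and Bdkrb1 the bradykinin B1 receptor. After subtracting group means, r with Ocm was 0.951, 0.931, 0.923, 0.862 and 0.849. Pvalb stood 9th in this order, at 0.928.

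For Pvalb the 5 nearest genes were Capn3 (0.947), Maoa (0.941), Ocm (0.928), Bdkrb1 (0.926) and Fgb, the fibrinogen beta chain (0.922). The r of the deviations was 0.824 for Capn3, 0.791 for Maoa, 0.738 for Ocm, 0.740 for Bdkrb1 and 0.770 for Fgb. All right ventricle arrays share the group differences on which the pair was chosen, so these values are a description over 18 arrays. The 6 left ventricle arrays took no part in the ranking. There Ocm correlated at 0.992 with Acta1, 0.991 with Safb, 0.986 with Capn3, 0.897 with Maoa and 0.858 with Bdkrb1, against a median of 0.0248 over 2248 named genes with 6 values. For Pvalb the left ventricle values were 0.818 with Capn3, 0.694 with Maoa, 0.574 with Bdkrb1 and 0.604 with Fgb, against a median of 0.0691. Of these 6 arrays 3 are among those whose sign is in doubt. With it turned, r for Ocm was 0.954 with Acta1, 0.994 with Safb, 0.993 with Capn3, 0.870 with Maoa and 0.919 with Bdkrb1, against a median of 0.206. For Pvalb it was 0.264 with Capn3, 0.258 with Maoa, -0.0361 with Bdkrb1 and 0.104 with Fgb, against a median of 0.0149, so the left ventricle values of Pvalb depend on the sign.

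Acta1 averaged 1.69 ± 0.556 in CHF, 0.450 ± 1.11 in HYP and -2.66 ± 1.37 in CON right ventricles (SD, n = 6 each). In the left ventricle it was -0.184 ± 2.03 in CHF, -2.48 ± 1.03 in HYP and -0.220 ± 0.891 in CON (SD, n = 2 each). Safb averaged 1.04 ± 0.446 in CHF, -0.140 ± 1.04 in HYP and -3.35 ± 1.27 in CON right ventricles. Whether the probes of these genes share sequence was not tested.

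**Figure D4:**
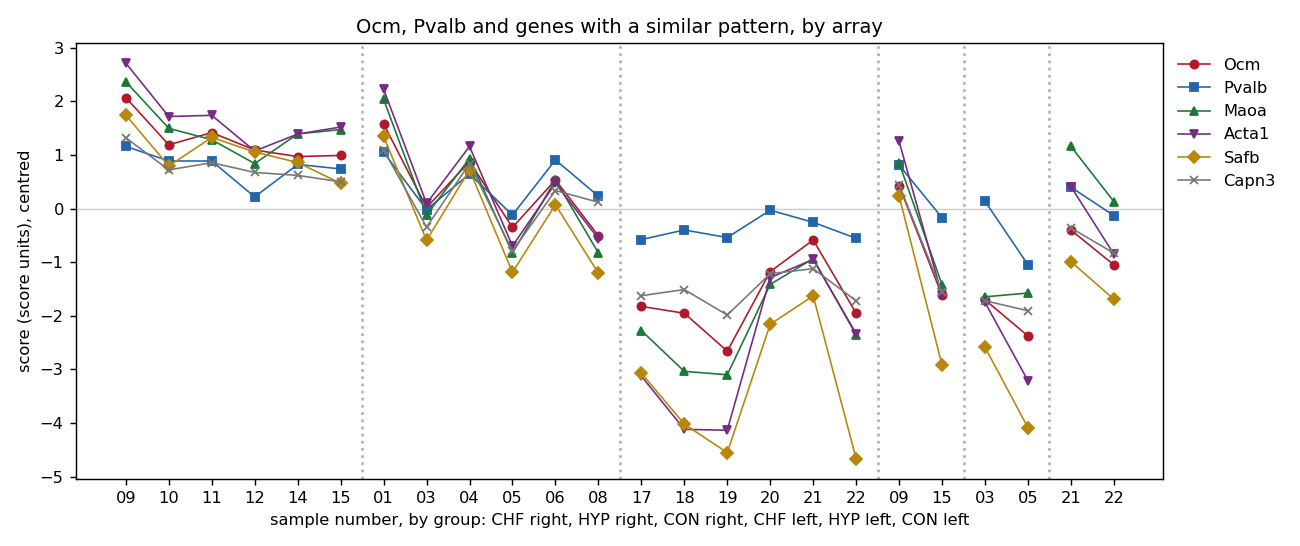
Scores of Ocm, Pvalb, Maoa, Acta1, Safb and Capn3 (vertical, score units) on each of the 24 arrays (horizontal, sample numbers within CHF, HYP and CON of the right and then the left ventricle); lines only join the arrays of a group. All 6 genes are higher in the CHF than in the CON right ventricle arrays, and Pvalb spans the narrowest range.

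Of the other calcium-binding genes only Capn3 passed in the right ventricle comparisons. A list of 52 EF-hand and other calcium-binding genes had 29 members tested in the right ventricle. In CHF against CON 1 of 29 passed, Capn3, higher by 2.31 ± 0.294 (SE, n = 6 and 6, limma adjusted p = 0.000149), where 0.907% of all features passed. In HYP against CON 1 of 29 passed, again Capn3, higher by 1.74 ± 0.294 (n = 6 and 6, adjusted p = 0.0121), where 0.281% did. Both comparisons hold the same CON arrays. The median difference of the 29 was -0.136 in CHF and -0.115 in HYP, beside -0.0992 and -0.0456 over all features, and 12 of 29 in CHF and 8 of 29 in HYP lay above 0, beside 41.2% and 43.8% of all features. The call of Capn3 in HYP was lost with the sign turned and with the 2 groups alone (adjusted p = 0.136 and 0.142), at 1.74 in both.

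The calbindin genes, which encode other cytosolic calcium buffers, did not pass in either comparison. Calb1 differed by 0.0157 ± 0.353 in CHF and -0.0657 ± 0.353 in HYP (SE, n = 6 and 6, limma adjusted p = 0.997 and 0.9997). For Calb2, calretinin, the differences were 0.304 ± 0.250 and -0.0495 ± 0.250 (adjusted p = 0.771 and 0.9997). S100a1, the heart's S100 protein, which acts on calcium release and uptake, differed by -0.607 ± 0.387 and -0.251 ± 0.387 (adjusted p = 0.694 and 0.9997). Calm2, a calmodulin gene, was at -0.687 ± 0.319 in CHF (adjusted p = 0.549), and Tnnc2, the fast skeletal calcium sensor troponin C, at -0.753 ± 0.324 (adjusted p = 0.525). Beside Capn3, the largest differences in HYP were Casq2, the calcium store protein of the cardiac sarcoplasmic reticulum, at -1.80 ± 1.38 (n = 6 and 5) and Hpcal1, a hippocalcin-like calcium sensor, at -0.851 ± 0.672 (n = 5 and 5), with adjusted p = 0.9997 for each.

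Of 37 listed genes that release, pump and exchange calcium, among them Casq2 again, 26 were tested and 0 passed in CHF or HYP against CON by limma, with 2 and 1 at an unadjusted p below 0.05. Over all 3199 features 0.907% and 0.281% passed, and 272 and 131 had such an unadjusted p, so a count of 0 among 26 is near the background. The median difference was -0.0852 in CHF and -0.0865 in HYP. Atp2a2, the cardiac calcium pump, differed by 0.712 ± 0.457 in CHF and 0.0688 ± 0.457 in HYP (SE, adjusted p = 0.697 and 0.9997). Atp2a1, the pump of fast skeletal muscle, differed by -0.00367 ± 0.322 and 0.372 ± 0.322 (adjusted p = 0.997 and 0.9997). Pln, phospholamban, the inhibitor of the cardiac pump, was at -0.251 ± 0.383 and -0.432 ± 0.383, and Ryr2, the cardiac release channel, at 0.0237 ± 0.299 and 0.265 ± 0.299 (limma adjusted p = 0.890 to 0.9997). A p that misses the threshold does not show that these genes were equal.

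**Figure D5:**
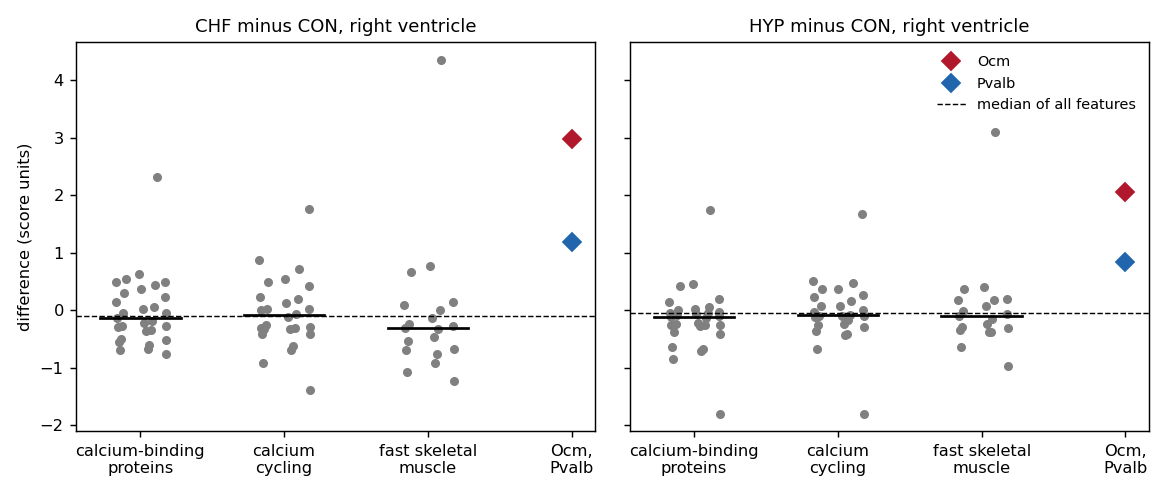
Difference in score units for the tested members of 3 gene lists and for Ocm and Pvalb, CHF minus CON (left panel) and HYP minus CON (right panel) of the right ventricle; grey points are genes, black bars list medians, the dashed line the median of all features. Ocm (2.98 and 2.05) and Pvalb (1.18 and 0.842) were chosen for being high in the left panel, and the right panel shares its CON arrays, so nothing is read from where they stand. The highest calcium-binding point is Capn3 (2.31 and 1.74) and the highest fast skeletal point Acta1 (4.35 and 3.11).

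Markers of tissues known for these genes, and of other cells of the heart, were set beside them. Over all features 0.907% passed in CHF and 0.281% in HYP against CON, with median differences of -0.0992 and -0.0456. With 3 to 19 members tested, a count of 0 in a list is near these shares. Of 30 fast skeletal muscle genes 19 were tested, and 1 passed in each right ventricle comparison, Acta1, higher by 4.35 ± 0.573 in CHF (SE, n = 6 and 6, limma adjusted p = 0.000157) and 3.11 ± 0.573 in HYP (adjusted p = 0.0174). The direction of Acta1 is no result, since the reading of the scores as sample over pool was taken from it. Its call in CHF was lost with the sign turned (3.31, adjusted p = 0.0849). In HYP it was lost with the sign turned (adjusted p = 0.292), with the 2 groups alone (adjusted p = 0.148), at 3.11 in both, and without the same 7 arrays as that of Ocm, at differences of 2.75 to 3.17 (adjusted p = 0.0519 to 0.0666). The medians of the 19 were -0.301 in CHF and -0.101 in HYP. Per array, the median score of this list ran from -0.240 to 0.260 in CHF, -0.051 to 0.235 in HYP and 0.0455 to 0.533 in CON right ventricles. Of 21 neuronal genes 15 were tested with 0 passing in either comparison (0 and 1 at an unadjusted p below 0.05, limma), and array medians ran from -0.483 to 0.081 in CHF, -0.403 to 0.263 in HYP and -0.224 to 0.345 in CON. For 20 macrophage and neutrophil genes, 7 were tested and 0 passed, with 0 at an unadjusted p below 0.05 in both, and array medians ran from -0.593 to 0.358 in CHF, -0.924 to 0.231 in HYP and -0.605 to 0.564 in CON.

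The labelled tissue could be checked only against the pool. The 13 heart muscle markers had array medians from -2.29 to 0.857 in CHF, -0.540 to 0.747 in HYP and -0.534 to 1.39 in CON right ventricles, and from 0.715 to 1.46 over the left ventricle arrays. None of the 13 passed in CHF or HYP against CON of the right ventricle (limma, 1 and 0 at an unadjusted p below 0.05). Fibroblast genes (8 tested, 0 passing, 3 and 0 at an unadjusted p below 0.05) had medians of -0.354 in CHF and -0.317 in HYP. Of 3 endothelial genes tested 1 passed in CHF, Cav1, the caveolin of endothelium, at 4.92 ± 0.868 on 2 and 3 arrays (adjusted p = 0.0302), and at -3.68 with the sign turned (adjusted p = 0.194). Its call was also lost with arrayWeights (adjusted p = 0.102) and without CON array 17, 19 or 20, at 4.65 to 5.17 (adjusted p = 0.0800 to 0.115). The 2 CHF values of Cav1 were those of arrays 10 and 14, whose sign is in doubt. Without either array Cav1 had too few values to be tested. The 4 tested erythrocyte genes had a median of 0.990 in CHF and 0.0674 in HYP, with 0 passing and 0 at an unadjusted p below 0.05. The part of any of these in the scores of Ocm and Pvalb was not tested.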

How the data were processed

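RNA of 24 rat ventricle samples was measured on 2-colour arrays against a shared pool. The authors deposited a signed score per probe and array. Its scale, the scanner, dyes, background correction, normalization and filters were not stated in the sources at hand. Array medians ran from -0.200 to 0.217, and each array was centred on its median. Of 4803 probes 4278 had 1 symbol in the platform annotation, 4 had several and 521 none. Probes of a gene were averaged, giving 4651 features, and the 4257 probes found in RefSeq (GRCr8) by Entrez identifier kept their symbols.

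Linear models were fitted in R 4.3.3 with limma 3.58.1 and its moderated test (eBayes). Adjusted p-values are Benjamini-Hochberg values across every feature tested, with a threshold of 0.05. Right ventricle comparisons used 18 arrays in 3 groups, all others 24 arrays in 6 groups, and a feature needed values on 2 arrays of each group. The test of HYP minus CON in the right ventricle was checked on simulated data with independent noise for each feature and array. That check does not cover variation that features share, such as the first component above. The labels do not state that samples are separate animals, so the p-values reflect only how these samples vary, possibly for technical reasons. The number of arrays limits the precision.

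Permutations of the within-group relation numbered 100000. Genes named were Ocm and Pvalb, list members that passed, 12 calcium genes chosen for their role where measured, the 3 calcium-binding genes with the largest difference in each right ventricle comparison, and the 5 genes most like each member. Members, lists and the arrays whose sign was turned were chosen with earlier results of these data known. Alternatives were deposited scores, turned signs, arrayWeights, features with values on every array, single probes, other sets of arrays, sample number as a block and leaving out arrays. The 6 same-numbered pairs of arrays had correlations of deviations from -0.297 to 0.416. By this correlation the right ventricle array of the same number ranked 1 of 6 for HYP 03, HYP 05 and CHF 15. The ranks were 5, 3 and 5 for CHF 09, CON 21 and CON 22. The left ventricle arrays of these last numbers are among those whose sign was turned. The left ventricle deviations of a condition also mirror each other, so its ranks are not independent. The correlations thus do not settle whether the numbers mark pairs, and the main fits did not take them as pairs.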

Additional observations from a re-analysis of the deposited data

Results flagged for a closer look

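The HYP minus CON difference of Ocm had opposite signs in the 2 ventricles. This was not particular to Ocm. The difference was 3.11 in the right and -2.26 in the left ventricle for Acta1, and 1.74 and -1.22 for Capn3. For Ocm all 6 HYP right ventricle arrays lay above the CON right ventricle mean and both HYP left ventricle arrays below the CON left ventricle mean. That pattern is the rule by which Ocm was flagged, and the share of all features that meet it was not counted. The right minus left difference of the effect on Ocm was 3.36 ± 0.796 (SE, limma adjusted p = 0.110), so it did not pass. For Pvalb it was 1.43 ± 0.522 (adjusted p = 0.9997). Limma called 0 of 2494 features, 0%, with 62 at an unadjusted p below 0.05. The Ocm value passed without CON right ventricle array 21, at 3.58 (adjusted p = 0.0450), and with the sign turned, at 4.81 (adjusted p = 0.0169). The effect in the right ventricle holds the CON arrays that helped to choose the pair.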

How the results depend on the processing

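Of all recomputed values, 339 kept direction and side of the threshold (counts within 1.5 times), 32 moved, 25 no longer passed, 8 changed sign and 3 passed only in the alternative. The untested CHF minus CON right ventricle values of Ocm and Pvalb were kept if they changed by less than the root mean square of the 2 group SDs. Otherwise they count as moved. Values that passed in neither setting are among the 339, so that number does not measure stability. With the sign turned, the count of calls was 1 in HYP minus CON and 9 in CHF minus CON of the right ventricle, 96 in HYP minus CON of the left ventricle, 0 in HYP right minus left and 33 in the HYP effect of right minus left. It also gave CHF minus CON right ventricle values of 2.26 for Ocm and 0.608 for Pvalb, left ventricle values of -1.75 and -0.356, 2.05 for Ocm in HYP minus CON (no longer passing), -3.68 for Cav1, and 4.81 for Ocm in the HYP effect of right minus left (passing). With the 2 groups alone, HYP minus CON had 0 calls and Ocm stayed at 2.05 without passing. Other counts that changed were 18 in CHF minus CON without CHF arrays 10 and 14, an alternative added after seeing the data. In HYP right minus left they were 1 on deposited scores, 1 with arrayWeights, 10 on features with every value (Ocm 2.40, passing) and 5 with sample number as a random replicate block. In the HYP effect of right minus left they were 7 on features with every value, 4 on single probes and 6 with the random replicate block. Blocking by sample number left the calls for Ocm and Pvalb on their side of the threshold. HYP right minus left was 1.87 for Ocm and 0.386 for Pvalb with a fixed replicate block, and 2.28 and 0.786 with a random one.

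Leaving out 1 array at a time gave HYP minus CON right ventricle values of 1.81 to 2.27 for Ocm and 0.722 to 0.956 for Pvalb, with 3 to 9 calls (3 or 4 without HYP 01, 04 or 06 or CON 17, 18, 19 or 22). CHF minus CON had 16 to 38 calls in the right ventricle (16 without CON 19, 17 without CHF 10), with Ocm at 2.79 to 3.20 and Pvalb at 1.10 to 1.29. In the left ventricle Ocm was at -0.895 to 1.15 and Pvalb at -0.305 to 0.676, changing sign without CHF array 09 (-0.895 and -0.305) or CON array 22 (-0.198 and -0.0795). HYP minus CON there had 0 to 4 calls (4 without HYP 03), and Pvalb ran from -1.18 to 0.001. HYP right minus left had 1 to 7 calls (1 without right HYP 06, 6 without right HYP 05, 7 without left HYP 05). The HYP effect of right minus left had 0 to 8 (8 without right CON 21, 4 without right HYP 05 or left HYP 03), with Ocm at 3.03 to 3.70. The within-group r ran from 0.653 to 0.786. The causes were not tested. Signal over background is not given, so what dim spots limit is unknown.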

Other observations

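Among the 2092 named genes compared over the right ventricle arrays, the most opposite to both members was Tcf21, a transcription factor of fibroblasts and the epicardium, named after its values were seen. Its scores correlated at -0.809 with Ocm and -0.812 with Pvalb (18 arrays, a description). Tcf21 averaged -0.547 ± 0.321 in CHF, -0.206 ± 0.470 in HYP and 0.216 ± 0.266 in CON right ventricles (SD, n = 6 each). In the left ventricle it was -0.604 ± 0.107 in CHF, -0.0105 ± 0.303 in HYP and -0.505 ± 0.247 in CON (SD, n = 2 each).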
